A study of Mus musculus with 6 samples.

Results

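The genes described here are 48 components of the DNA replication machinery, measured by RNA-seq in 3 NF-YAcKO and 3 NF-YAfl/fl libraries of cultured satellite cells (SCs), the stem cells of skeletal muscle. They were chosen by name for their known role in replication, with earlier results of these data known, and all 48 were found among the 35976 genes of the deposited tables. NF-YAcKO mice carry floxed NF-YA alleles and the Pax7-CreERT2 driver, so that tamoxifen (20 mg/ml by the labels) activates Cre in Pax7-expressing cells, while NF-YAfl/fl controls carry the same floxed alleles without Cre and received tamoxifen too. The labels give an age of 5 to 7 weeks for both groups, and the methods of the study a slightly older one. SCs were enriched by magnetic depletion of other cells, without a positive sort, and grown in growth medium with FGF-2 before 500 ng of total RNA per library were used. Whether each library came from 1 mouse or from pooled mice is not given in the sources used here, so that p-values measure the spread between these libraries.

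DNA replication begins with licensing, when the origin recognition complex (ORC), Cdc6 and Cdt1 load the MCM2-7 helicase onto DNA in G1 phase, and geminin (Gmnn) keeps Cdt1 from doing this again later in the cycle. The Cdc7-Dbf4 kinase, Mcm10, Cdc45 and the GINS complex then turn the loaded helicase into a moving fork. Behind it work primase and the polymerases alpha, delta and epsilon, the sliding clamp PCNA and its loader replication factor C (RFC), the single-strand binding protein RPA, the flap nuclease Fen1 and DNA ligase 1. NF-YA is the subunit through which the trimer NF-Y binds the CCAAT box, a sequence known from the promoters of many cell cycle genes.

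In NF-YAcKO cells 45 of the 48 replication genes were expressed at a higher level than in NF-YAfl/fl cells (edgeR quasi-likelihood test, FDR under 0.05 over 17348 genes tested). None was lower. Among all genes tested, 19.7% were higher and 18.9% lower by the same rule. DESeq2 gave 46 higher and 0 lower at FDR under 0.05, against 3606 higher and 3720 lower of all 17348 genes tested. At an unadjusted p under 0.05 in the edgeR fit, 46 were higher and 0 lower. The share over all genes at this unadjusted p is not given here. The median log2 fold change of the 48 genes was 1.17, or 2.25-fold, and the middle part of the values lay in a narrow band, with quartiles of 1.06 and 1.40. Over all genes tested the median was -0.02, with quartiles of -0.57 and 0.42. In 46 of the 48 genes every NF-YAcKO library was above every NF-YAfl/fl library in CPM (counts relative to library size after TMM normalization, scaled as CPM), which was the case in 29.1% of all genes tested (26.2% had every NF-YAcKO library below). In bulk RNA, more cells in S phase and more RNA of these genes per cell cannot be told apart. The exceptions to the separation were Orc3 and Orc4. The remaining gene that did not pass the test was Cdc7.

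**Figure D1:**
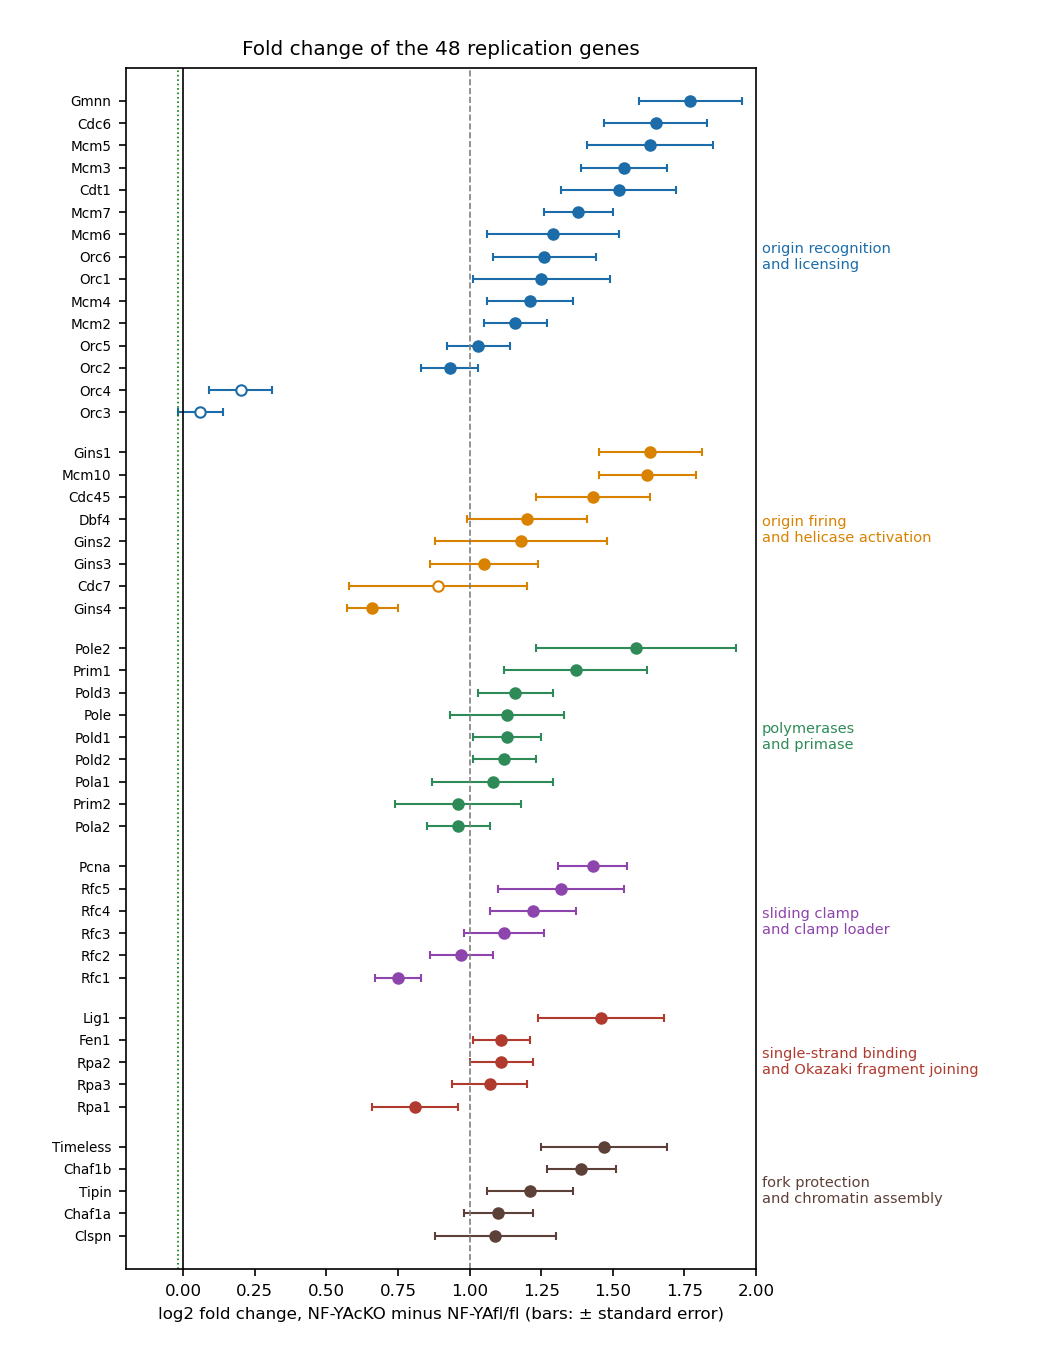
Log2 fold change between NF-YAcKO and NF-YAfl/fl (x axis) of each of the 48 replication genes (y axis), by role, with standard error as bars; filled points passed the test (FDR under 0.05), open points did not. The dashed line marks 1 and the dotted line the median of all genes tested, -0.02; most genes lie between 1 and 1.5, Gmnn is highest at 1.77, and Orc3 (0.06) and Orc4 (0.20) lie near 0.

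By size, 8 genes had a log2 fold change of at least 1.5 (Gmnn, Cdc6, Mcm5, Gins1, Mcm10, Pole2, Mcm3 and Cdt1), 30 lay between 1 and 1.5, and 10 were below 1. With the thresholds of the study (FDR under 0.01 and a log2 fold change beyond 1), 36 of the 48 were higher and 0 lower, against 4.65% higher and 7.67% lower among all genes tested. Of the 9 genes that passed the test but not these thresholds, 7 had a log2 fold change below 1 (Orc2, Gins4, Pola2, Prim2, Rfc1, Rfc2 and Rpa1) and 2 missed the FDR (Gins2 and Pole2). The count of 36 changed when 1 library was left out. It was 16, 13 and 17 without NF-YAcKO replicate 1, 2 and 3, and 21 without NF-YAfl/fl replicate 1. Over all genes tested the same count fell from 806 to between 177 and 298 in these fits. At FDR under 0.05, 42 to 46 of the 48 were higher without any 1 library, against 1739 to 4456 of all genes tested. A test against a minimum log2 fold change of 1 (glmTreat) called 0 of the 48 at FDR under 0.01. Its count over all genes tested is not given here, so this 0 cannot be set against a background.

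Some properties of the libraries differed between the genotypes. The entry for the deleted Nfya allele received 22.3%, 26.4% and 34.2% of the Nfya counts in the NF-YAcKO libraries and 0 in all NF-YAfl/fl libraries. Nfya as a whole had 848, 1182 and 1148 expected counts in NF-YAcKO and 613, 864 and 1087 in NF-YAfl/fl, not scaled to library size. Library totals overlapped, at 31040863 to 41118984 expected counts in NF-YAcKO and 26936230 to 33316730 in NF-YAfl/fl. The biological coefficient of variation was 0.105 in NF-YAcKO and 0.31 in NF-YAfl/fl. Xist was at 836 to 852 CPM in NF-YAcKO while the Y-linked Ddx3y was near 0, and the reverse held in NF-YAfl/fl, although the methods describe male mice. Genotype and sex, as read from Xist and Ddx3y, cannot be told apart in these libraries for any of the 48 genes. Among them Pola1 lies on the X chromosome.

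The cell type markers differed as well. All 10 genes of differentiated muscle were lower in NF-YAcKO (summed CPM 49.6 to 127, against 9171 to 12462), 7 of 8 macrophage genes were higher (137 to 270 against 4.68 to 14.7, with none at 0 in all libraries), and 2 of 6 fibroblast genes were higher, with overlapping sums (1329 to 1666 against 390 to 1673). Of 4 endothelial genes 1 was higher (10.8 to 15.8 against 3.70 to 6.99). Of 7 genes of SCs and myoblasts 2 were higher, among them Pax7 (log2 fold change 0.94), and 3 were lower, with Des the lowest at -2.09 (summed CPM 1450 to 1630 against 2223 to 3878). The part of these markers, and of cells at different stages of the cycle, in the level of the replication genes was not tested. A set of 8 proliferation genes outside the replication machinery (Mki67, Top2a, Ccna2, Ccnb1, Cdk1, Rrm2, Tyms and Tk1) was higher in 6, with a median log2 fold change of 1.27. Mki67 (0.55, FDR 0.131) and Tyms (0.15, FDR 0.406) did not pass.

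The 48 replication genes summed to 3521, 3763 and 3503 CPM in NF-YAcKO and to 1559, 1888 and 1387 in NF-YAfl/fl. The groups did not overlap. Divided by the sum of the 8 proliferation genes in the same library, however, they gave 1.67, 1.69 and 1.63 in NF-YAcKO and 1.79, 1.35 and 1.70 in NF-YAfl/fl, and these ranges overlap. This ratio was chosen after the values were seen.

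**Figure D2:**
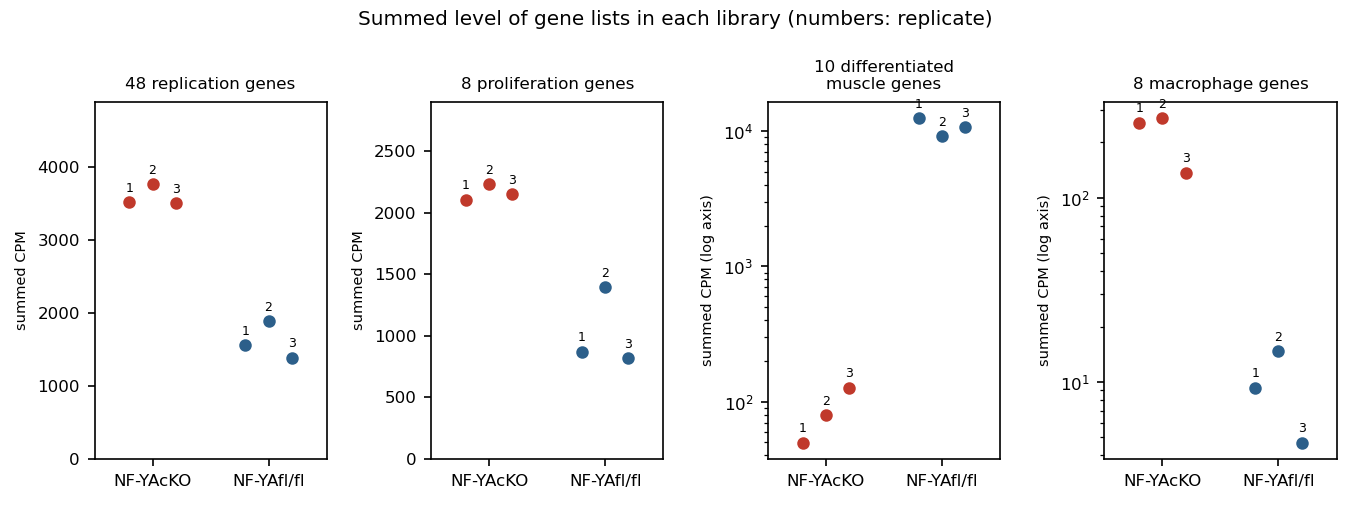
Summed CPM (y axis; log axis for the muscle and macrophage genes) of the 48 replication genes and of 3 marker lists in each library, by genotype (x axis), with the replicate number beside each point. In each panel the genotypes do not overlap: the replication genes sum to 3503 to 3763 in NF-YAcKO and 1387 to 1888 in NF-YAfl/fl, and the muscle genes to 49.6 to 127 and 9171 to 12462.

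Because NF-Y binds CCAAT, the sequence around the start of these genes was read from RefSeq (GRCm38.p6, the build of mm10), from 250 bases before to 50 after each start. Windows were found for 39 of the 48 genes. CCAAT, on either strand, was in a window of 23 of these 39 (59%), compared with 42.3% of the 12466 genes tested that have a window and 41.1% of all genes with one. Windows with 2 or more CCAAT were found in 14 genes (35.9%, against 15.2% of genes tested). The E2F-type motifs TTTCCCGC and TTTGGCGC, on either strand, were in 13 of the 39 (33.3%), compared with 3.02% of the genes tested, and 7 genes had both kinds (17.9%, against 1.32%). By role, CCAAT was in 9 of 13 licensing genes, 3 of 5 firing genes, 3 of 7 polymerase and primase genes, 3 of 5 clamp and loader genes, 3 of 5 single-strand binding and Okazaki genes and 2 of 4 fork protection and chromatin genes. The E2F-type motifs were in 7, 1, 4, 1, 0 and 0 genes of these roles. Genes with several starts have several windows and more chances of a match. Of the 45 CCAAT matches in these genes, 26 (57.8%) lay between -120 and -20 from the start, compared with 48.9% of the matches in all genes tested.

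The fold changes did not separate by motif. The 23 genes with CCAAT had a median log2 fold change of 1.12 (0.20 to 1.63) and the 16 without 1.21 (0.06 to 1.65), while the 13 with an E2F-type motif had 1.29 and the 26 without 1.14. As examples, the window of the gene with the lowest p in each role is printed (for a gene with several starts, the start that RefSeq's table lists first). Sequences run 5′ to 3′ on the strand of the gene, with CCAAT, the E2F-type motifs and their reverse complements (ATTGG for CCAAT) in capitals. Mcm7 (chr5:138171834-138172133, minus strand) holds 3 CCAAT and 1 E2F-type motif, Mcm10 (chr2:5012742-5013041, minus) and Pold2 (chr11:5878207-5878506, minus) 3 CCAAT each, and Pcna (chr2:132253131-132253430, minus) 1. Another listed start of Mcm7 has 1 CCAAT and another of Pold2 has 0. Fen1 (chr19:10204344-10204643, minus) and Chaf1b (chr16:93883651-93883950, plus) have neither motif in these windows. Mcm7 and Chaf1b, at 3 and 0 CCAAT in the printed windows, had log2 fold changes of 1.38 and 1.39. This pair is only an example, and a relation between motif and fold change was not tested.
Mcm7: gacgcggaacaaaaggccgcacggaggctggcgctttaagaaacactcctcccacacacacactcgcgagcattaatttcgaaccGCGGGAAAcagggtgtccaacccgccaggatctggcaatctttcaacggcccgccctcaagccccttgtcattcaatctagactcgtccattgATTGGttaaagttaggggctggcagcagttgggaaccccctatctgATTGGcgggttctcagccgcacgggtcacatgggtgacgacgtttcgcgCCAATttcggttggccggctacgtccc
Mcm10: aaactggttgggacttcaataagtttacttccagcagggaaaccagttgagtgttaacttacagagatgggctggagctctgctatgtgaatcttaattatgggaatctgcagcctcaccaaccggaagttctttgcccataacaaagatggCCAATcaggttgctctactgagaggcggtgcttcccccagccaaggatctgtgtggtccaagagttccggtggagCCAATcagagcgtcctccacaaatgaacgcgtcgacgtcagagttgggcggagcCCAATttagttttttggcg
Pold2: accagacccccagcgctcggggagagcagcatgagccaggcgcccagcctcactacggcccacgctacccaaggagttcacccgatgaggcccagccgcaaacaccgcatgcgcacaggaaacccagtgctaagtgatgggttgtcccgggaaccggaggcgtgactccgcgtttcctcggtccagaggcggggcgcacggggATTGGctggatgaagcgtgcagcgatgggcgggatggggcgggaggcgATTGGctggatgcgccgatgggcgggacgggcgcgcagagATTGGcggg
Pcna: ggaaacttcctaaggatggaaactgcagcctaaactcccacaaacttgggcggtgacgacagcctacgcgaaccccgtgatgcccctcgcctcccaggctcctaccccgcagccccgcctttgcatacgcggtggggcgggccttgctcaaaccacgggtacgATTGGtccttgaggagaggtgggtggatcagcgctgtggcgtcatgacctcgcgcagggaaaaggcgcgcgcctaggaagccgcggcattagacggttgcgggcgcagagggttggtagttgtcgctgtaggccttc
Fen1: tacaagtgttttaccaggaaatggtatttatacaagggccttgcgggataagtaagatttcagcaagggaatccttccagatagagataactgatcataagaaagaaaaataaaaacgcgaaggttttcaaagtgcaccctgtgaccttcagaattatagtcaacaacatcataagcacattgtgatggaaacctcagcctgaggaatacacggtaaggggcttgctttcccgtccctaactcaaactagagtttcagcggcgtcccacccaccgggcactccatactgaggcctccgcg
Chaf1b: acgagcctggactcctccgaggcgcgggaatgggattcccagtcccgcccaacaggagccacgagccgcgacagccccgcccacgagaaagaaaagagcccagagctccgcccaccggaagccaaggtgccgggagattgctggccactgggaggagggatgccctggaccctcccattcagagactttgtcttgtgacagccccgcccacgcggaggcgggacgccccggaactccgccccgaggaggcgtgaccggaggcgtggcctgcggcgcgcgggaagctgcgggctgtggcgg

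Among the 15 genes of origin recognition and licensing, 13 rose, with a median log2 fold change of 1.26. All subunits of the MCM2-7 helicase were among them, at 1.16 (Mcm2), 1.54 (Mcm3), 1.21 (Mcm4), 1.63 (Mcm5), 1.29 (Mcm6) and 1.38 (Mcm7). Mcm7 (chromosome 5, 138164583 to 138172111), whose window with 3 CCAAT is shown above, was at 190, 213 and 198 CPM in the NF-YAcKO libraries and at 68.4, 87.2 and 75.5 CPM in the NF-YAfl/fl libraries. The lowest NF-YAcKO library was thus well above the highest NF-YAfl/fl library, and the log2 fold change was 1.38 (SE 0.12, FDR 0.000421). Mcm2, in which the amino-terminal part also binds histones, had 160, 172 and 160 CPM against 74.2, 81.6 and 63.7 CPM (log2 fold change 1.16, SE 0.11, FDR 0.000709). Mcm3 had 166, 177 and 164 CPM against 58.7, 68.7 and 46.4 CPM (1.54, SE 0.15, FDR 0.000709). In both genes NF-YAfl/fl replicate 2 was the highest control and replicate 3 the lowest.

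The helicase loaders and their inhibitor were higher together. Cdc6, the ATPase that works with ORC, had a log2 fold change of 1.65 (SE 0.18), Cdt1, which brings in MCM2-7, 1.52 (SE 0.20), and Gmnn, the inhibitor of Cdt1, 1.77 (SE 0.18, FDR 0.000874), the largest of the 48. Gmnn was at 23.0, 24.9 and 22.3 CPM in NF-YAcKO and at 6.73, 8.45 and 5.39 CPM in NF-YAfl/fl. Per length, the ratio of Cdt1 to Gmnn (TPM) was 1.67, 1.72 and 1.68 in NF-YAcKO and 1.63, 1.42 and 3.39 in NF-YAfl/fl. The genotypes overlapped in this ratio (p = 1.0 by an exact permutation test, two-sided; 3 libraries against 3 cannot give less than 0.1). In NF-YAfl/fl replicate 3, the highest of the ratios, Cdt1 was at 20.9 TPM, close to the 20.4 TPM of replicate 2, and Gmnn was the lowest of the controls at 6.17 TPM, against 9.40 and 14.4 TPM.

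The subunits of ORC, which marks origins, differed from each other. Orc1, the cell cycle-regulated subunit, rose by 1.25, Orc2 by 0.93, Orc5 by 1.03 and Orc6 by 1.26 on the log2 scale. Orc3 was at 74.3, 74.1 and 71.3 CPM in NF-YAcKO and at 67.8, 69.8 and 72.6 CPM in NF-YAfl/fl. These ranges overlap, and the log2 fold change was 0.06 (SE 0.08, FDR 0.562). Orc4 was at 60.7, 61.5 and 56.9 CPM against 58.9, 48.4 and 48.7 CPM, again with overlap (0.20, SE 0.11, FDR 0.184).

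Set against Orc3 in the same library, the other subunits separated in the same way. In TPM, which allows a comparison per length, Orc6 was at 1.46, 1.47 and 1.44 times Orc3 in NF-YAcKO and at 0.622, 0.845 and 0.538 times in NF-YAfl/fl. The ratio of Orc1 to Orc3 was 0.273, 0.272 and 0.258 against 0.110, 0.159 and 0.0811. For Orc2 it was 1.34 to 1.43 against 0.675 to 0.912, and for Orc5 0.599 to 0.656 against 0.313 to 0.359. In these 4 ratios no NF-YAcKO library reached the range of the controls, while Orc4 to Orc3 overlapped (0.979 to 1.06 against 0.960 to 1.10). An exact permutation test (two-sided) gave p = 0.1, its smallest possible value, for each of these 4 ratios. Orc3 was taken as the base after its values were seen, so these p-values add no weight and the ratios restate the fold changes per length. The order of the mean levels therefore changed, from Orc4, Orc3, Orc2, Orc6, Orc5 and Orc1 in NF-YAfl/fl to Orc6, Orc2, Orc4, Orc3, Orc5 and Orc1 in NF-YAcKO. Orc3 and Orc4 were neighbours in both orders and did not differ beyond their spread, and Orc1 was the lowest in both. The MCM2-7 subunits were more even, with 1.72 to 1.80 times between the highest and the lowest in each NF-YAcKO library and 1.93 to 2.73 times in NF-YAfl/fl.

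**Figure D3:**
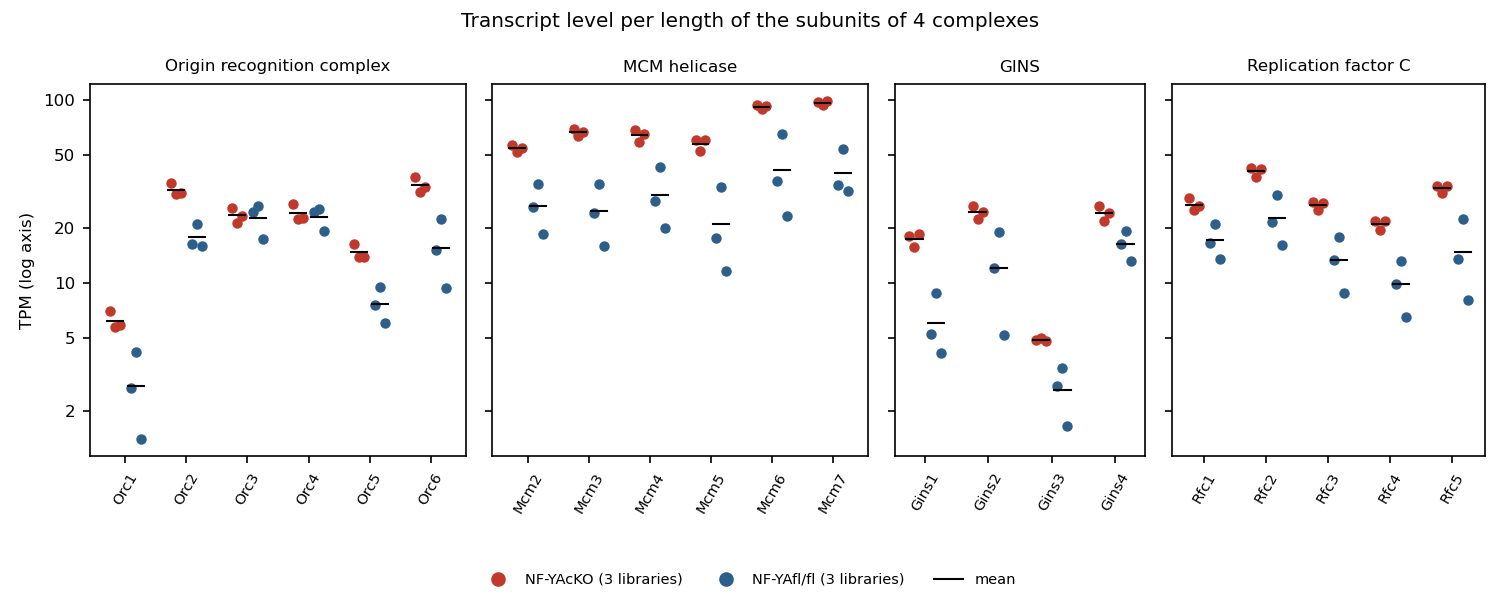
TPM (y axis, log axis) of the subunits of ORC, the MCM2-7 helicase, GINS and RFC (x axis) in the 3 NF-YAcKO and 3 NF-YAfl/fl libraries, with the mean as a line. Points of the genotypes overlap for Orc3 and Orc4, and the NF-YAcKO points lie above for every other subunit shown; Orc1 is the lowest ORC subunit and Gins3 the lowest GINS subunit in both genotypes.

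Of the 8 genes of origin firing and helicase activation, 7 rose (median log2 fold change 1.19). Mcm10, which helps the helicase to open and move, had 56.4, 61.5 and 57.5 CPM in NF-YAcKO and 18.8, 23.4 and 14.8 CPM in NF-YAfl/fl (log2 fold change 1.62, SE 0.17, FDR 0.000949). Gins1, a GINS subunit, had 14.2, 14.8 and 15.2 CPM against 4.28, 5.83 and 4.14 CPM (1.63, SE 0.18, FDR 0.00102). The controls of both genes reached less than the lowest NF-YAcKO library by a wide margin. Cdc45, the other helicase cofactor, had 47.9, 53.1 and 45.5 CPM against 17.9, 23.0 and 13.3 CPM (1.43, SE 0.20, FDR 0.00236). Gins4 changed the least in the complex, from 17.4, 16.7 and 16.9 CPM in NF-YAfl/fl to 27.7, 26.8 and 26.4 CPM in NF-YAcKO (0.66, SE 0.09, FDR 0.00259), and its libraries agreed closely within each genotype. Gins3 rose by 1.05 and Gins2 by 1.18 (FDR 0.0209). For Gins2 the FDR was between 0.0596 and 0.0786, at a log2 fold change of 1.14 to 1.22, without NF-YAcKO replicate 1, 2 or 3 or without NF-YAfl/fl replicate 1.

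The Cdc7-Dbf4 kinase gave different calls for its subunits. Dbf4, the regulatory subunit, rose by 1.20 (SE 0.21, FDR 0.00532). Cdc7, the catalytic subunit, was at 19.4, 20.7 and 18.3 CPM in NF-YAcKO and at 10.7, 14.8 and 5.87 CPM in NF-YAfl/fl. All NF-YAcKO libraries were above the controls, but the controls themselves spanned 2.52 times, and the test gave a log2 fold change of 0.89 (SE 0.31, FDR 0.058). Without NF-YAfl/fl replicate 2 it was 1.22 (FDR 0.0165), without replicate 3 it was 0.60 (FDR 0.0184), and DESeq2 gave an FDR of 0.0239. A difference between the subunits is not shown by these calls, since the ratio of Dbf4 to Cdc7 in TPM was 5.56 to 5.98 in NF-YAcKO and 4.14 to 5.89 in NF-YAfl/fl (exact permutation test, two-sided, p = 0.3).

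All 9 polymerase and primase genes rose (median log2 fold change 1.13). Polymerase delta copies the lagging strand, and its 3 subunits among the 48 genes were the closest to each other. A further subunit, Pold4, is outside the 48 and did not pass (log2 fold change 0.37, FDR 0.0598). Pold2 had 47.3, 54.3 and 52.3 CPM in NF-YAcKO and 22.3, 22.7 and 26.0 CPM in NF-YAfl/fl (log2 fold change 1.12, SE 0.11, FDR 0.000709). The catalytic subunit Pold1 had 66.1, 70.8 and 67.4 CPM against 29.9, 35.6 and 27.9 CPM (1.13, SE 0.12, FDR 0.000849), and Pold3 41.1, 43.2 and 40.8 CPM against 16.7, 22.0 and 17.2 CPM (1.16, SE 0.13, FDR 0.00120). No library of one genotype reached the other in these genes. In polymerase epsilon, which copies the leading strand, the catalytic Pole rose by 1.13 (SE 0.20) and Pole2 by 1.58 (SE 0.35, FDR 0.0123). Pole2 had the widest spread among controls of the 48 genes, at 6.88, 10.2 and 3.53 CPM, and its FDR was 0.0543 without NF-YAcKO replicate 2. By the GENCODE annotation it also shares 245 exon bases with the gene Gm49384 on the same strand, as Orc5 shares 90 with the pseudogene Gm15421. Whether these 2 genes were in the authors' reference, so that reads were divided with them, is not given in the sources used here.

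In polymerase alpha-primase, which makes the primers, Prim1 rose by 1.37, Pola1 by 1.08, and Prim2 and Pola2 by 0.96. Pola2 had 38.6, 43.6 and 37.6 CPM in NF-YAcKO and 19.5, 22.4 and 19.8 CPM in NF-YAfl/fl (SE 0.11, FDR 0.00129), without overlap. Prim2 had an FDR of 0.0131 over all libraries and of 0.0512 to 0.0593 without NF-YAcKO replicate 1, 2 or 3 or NF-YAfl/fl replicate 1, while its log2 fold change stayed at 0.92 to 0.93.

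The clamp and its loader rose in all 6 genes (median log2 fold change 1.17). Pcna, the ring that holds polymerases on DNA, was at 222, 237 and 223 CPM in NF-YAcKO and at 79.2, 98.0 and 75.4 CPM in NF-YAfl/fl. The lowest NF-YAcKO value was above each control by more than any control differed from another, and the log2 fold change was 1.43 (SE 0.12, FDR 0.000429). The RFC subunits ranged from 0.75 (Rfc1) through 0.97 (Rfc2), 1.12 (Rfc3) and 1.22 (Rfc4) to 1.32 (Rfc5). Rfc1, the large subunit, had 116, 118 and 109 CPM against 67.7, 70.6 and 65.9 CPM (SE 0.08, FDR 0.00110). Rfc2 had 50.3, 52.9 and 51.6 CPM against 26.0, 29.7 and 23.5 CPM (SE 0.11, FDR 0.00128). The ratio of Pcna to Rfc1 in TPM was 8.02 to 8.55 in NF-YAcKO and 4.75 to 5.83 in NF-YAfl/fl. This pair was taken after the values were seen, as the members with the highest and the lowest fold change in this role. Its exact permutation p of 0.1 (two-sided), the smallest possible, therefore adds no weight.

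The 5 genes of single-strand binding and Okazaki fragment joining all rose (median log2 fold change 1.11). Fen1, which removes the primer flap, had 75.9, 81.0 and 71.2 CPM in NF-YAcKO and 35.6, 38.2 and 32.1 CPM in NF-YAfl/fl (log2 fold change 1.11, SE 0.10, FDR 0.000627). Rpa2 had 39.3, 44.0 and 41.4 CPM against 20.2, 20.1 and 17.5 CPM (1.11, SE 0.11, FDR 0.000692), and Rpa3 15.6, 14.8 and 14.4 CPM against 7.26, 6.54 and 7.53 CPM (1.07, SE 0.13, FDR 0.00150). The controls of these genes were close to each other, in contrast to Rpa1, the large subunit of the same complex. Rpa1 had 187, 204 and 194 CPM against 110, 134 and 89.1 CPM (0.81, SE 0.15, FDR 0.00707). Lig1, which seals the fragments, rose by 1.46 (SE 0.22).

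The 5 genes of fork protection and chromatin assembly rose and passed the thresholds of the study (median log2 fold change 1.21). Chaf1b, a subunit of the histone chaperone CAF-1, had 35.6, 39.4 and 34.6 CPM in NF-YAcKO and 14.9, 14.7 and 12.3 CPM in NF-YAfl/fl (log2 fold change 1.39, SE 0.12, FDR 0.000481). Its partner Chaf1a had 79.9, 87.1 and 84.6 CPM against 35.2, 45.1 and 37.4 CPM (1.10, SE 0.12, FDR 0.000962), and shares 4648 exon bases with Ubxn6 on the opposite strand. In the fork protection pair, Timeless rose by 1.47 and Tipin by 1.21, the latter from 30.7, 34.5 and 23.8 CPM to 67.2, 73.4 and 65.4 CPM (SE 0.15, FDR 0.00156). Clspn, which passes the checkpoint signal from stalled forks, had 52.6, 58.0 and 54.9 CPM against 23.7, 34.7 and 19.3 CPM (1.09, SE 0.21, FDR 0.00750). In these genes the highest control was NF-YAfl/fl replicate 2, except in Chaf1b, in which replicate 1 was slightly above it.

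The spread between libraries differed between genotypes. The median coefficient of variation of the 48 genes was 4.52% in NF-YAcKO and 19.5% in NF-YAfl/fl, and 7.97% and 20.7% over all genes tested. Within NF-YAfl/fl, replicate 2 was the highest and replicate 3 the lowest library in 33 of the 48 genes (68.8%), compared with 24.6% of all genes tested. The sum of the 8 proliferation genes had the same order, at 870, 1395 and 817 CPM in NF-YAfl/fl replicates 1, 2 and 3. The median log2 deviation from each gene's mean was 0.58, 0.65 and 0.56 in the NF-YAcKO libraries and -0.58, -0.35 and -0.87 in the NF-YAfl/fl libraries, and this order of the controls was seen in all 6 roles. The order depends in part on the scale: in TPM the same order was found in 95.8% of the 48 genes but also in 54.4% of all genes tested. In TPM every NF-YAcKO library was above the controls in 45 of the 48 genes, compared with 18.8% of all genes tested, and Cdc7 joined Orc3 and Orc4 as an exception.

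The controls were not equally spread in all members. The ratio of the highest to the lowest NF-YAfl/fl library in CPM was 1.04 in Gins4, 1.06 in Orc5, 1.07 in Orc3 and in Rfc1, and 1.15 in Orc2, Pola2 and Rpa3. It was 2.11 in Prim1, 2.44 in Gins2, 2.52 in Cdc7 and 2.90 in Pole2. Thus 3 subunits of ORC were among the steadiest genes of the controls. NF-YAcKO libraries differed by 1.21 times at most in any of the 48 genes.

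**Figure D4:**
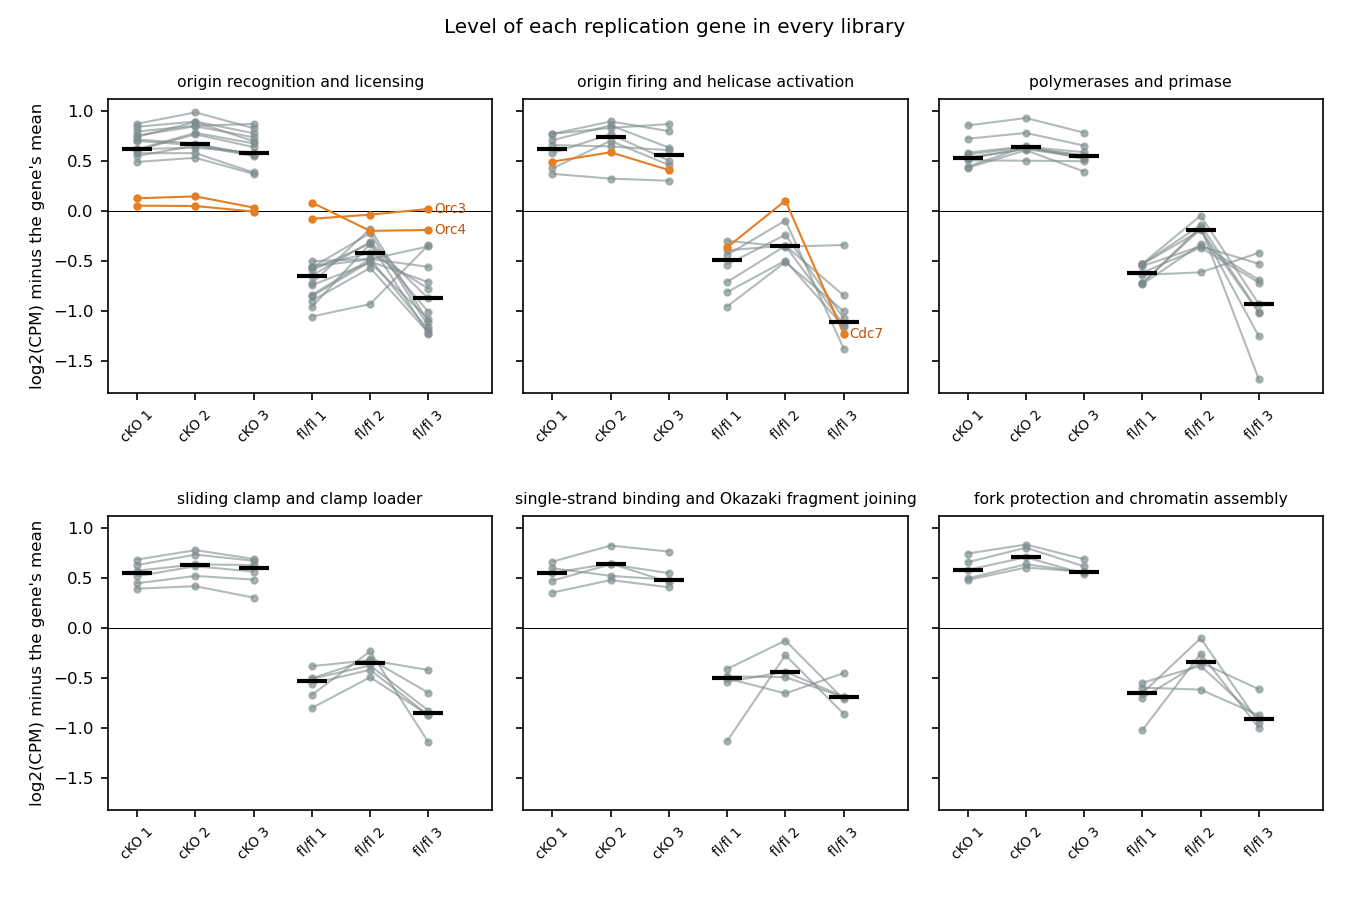
Level of each replication gene in every library as log2(CPM) minus the gene's mean over the 6 libraries (y axis), by role; lines join the libraries of one genotype (x axis), black bars are medians, and genes that did not pass the test are in orange. Medians over all 48 genes are 0.58, 0.65 and 0.56 in NF-YAcKO and -0.58, -0.35 and -0.87 in NF-YAfl/fl, with replicate 2 the highest control and replicate 3 the lowest in each role.

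Transcripts within a gene were compared by their percent of the gene's TPM. Of 17 genes with at least 2 transcripts at 10% or more, 7 had a transcript whose share did not overlap between genotypes (9 of 44 transcripts, 20.5%). Over all genes this was found for 25.7% of transcripts, so that the share in replication genes was close to the background. The largest difference was in Orc1, in which the shorter transcript (3014 nt) made 89.0%, 88.0% and 82.8% of the TPM in NF-YAcKO and 72.0%, 75.3% and 56.9% in NF-YAfl/fl, with the longer (4082 nt) making the rest. In Orc5 the main transcript (2059 nt) made 86.1% to 89.7% against 75.5% to 81.2%. In Orc3, without a difference in the gene's level, a transcript of 1229 nt made 32.9% to 37.9% against 22.7% to 27.2%. Each of these has an exact permutation p of 0.1 (two-sided), the smallest that 3 against 3 can give, before any correction for the transcripts compared. Shares of transcripts that overlap are estimates by the software. The count of 9 transcripts was 17 without NF-YAcKO replicate 1, 16 without NF-YAfl/fl replicate 1 and 19 without NF-YAfl/fl replicate 3. With fewer libraries compared, shares overlap less often by construction. The share over all genes without these libraries is not given here, so these counts have no background beside them.

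A further 30 replication genes outside the 48 were examined, among them origin firing factors, accessory polymerase subunits, alternative clamp loaders, RNase H2, histone chaperones and the telomeric CST complex. Of these 26 rose and 0 fell at FDR under 0.05, against 19.7% higher and 18.9% lower among all genes tested. By the thresholds of the study 12 were higher, against 4.65% of all genes tested. At an unadjusted p under 0.05, 28 were higher and 0 lower, without a share over all genes beside them. The median log2 fold change of the 30 genes was 0.98. Lrwd1, which binds ORC on chromatin, had 55.4, 58.9 and 54.1 CPM in NF-YAcKO and 28.2, 25.9 and 28.3 CPM in NF-YAfl/fl (log2 fold change 1.03, SE 0.09, FDR 0.000518). Mtbp, a partner of the firing factor Ticrr, had 75.1, 78.5 and 69.8 CPM against 33.0, 37.6 and 37.3 CPM (1.05, SE 0.10, FDR 0.000600). Neither gene showed overlap between the genotypes. Fbxo5, an inhibitor of the APC/C ligase that degrades geminin, had 38.1, 42.1 and 36.9 CPM against 16.3, 17.9 and 13.9 CPM (1.28, SE 0.13, FDR 0.000771). The 4 genes that did not pass were the polymerase delta subunit Pold4 (0.37), the CST subunits Ten1 (0.47) and Stn1 (0.31), and Top1 (-0.03). In Top1, the topoisomerase that relaxes DNA ahead of the fork, the sign changed in 2 of 16 alternatives. The count of 26 was 16 with limma on log2(TPM + 1), where the higher genes among all tested fell from 3418 to 1547.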

How the data were processed

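Satellite cell RNA was sequenced as 3 NF-YAcKO and 3 NF-YAfl/fl stranded libraries. The authors used Bowtie2 and RSEM with the mm10 build (submitters' processing notes), and deposited expected counts, which need not be whole because shared reads are divided, TPM, which the authors' software scaled to transcript length and a common sum, and, per transcript, the percent of its gene's TPM. Whether strand was used in counting is not given in the sources used here, and 15 of the 48 genes share exon bases with a gene on the opposite strand.

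After rounding of the expected counts, a gene was kept where 2 or more libraries exceeded 10 counts (17348 of 35976), and genotypes were compared with edgeR 4.0.16 (TMM, quasi-likelihood, genotype as the only factor, Benjamini-Hochberg) in R 4.3.3. The fit was tested on simulated data, where it found 79% of genes given a log2 change of 2 and 21% of those given 1. A gene that did not pass may therefore still differ. The simulation gave both genotypes the same dispersion, while the spread of the libraries here differed between genotypes. No libraries were duplicates. Alternatives used DESeq2 1.42.0 and limma 3.58.1, other normalizations, filters and pseudocounts (1 and 0.1), and each library left out. Plots were drawn with matplotlib 3.10.9.

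The members and lists were chosen with earlier results of these data known. Values in every library are given for the 3 genes with the lowest p and the gene with the lowest fold change in each role, and for the 3 other replication genes with the lowest p. Gmnn, Orc4, Cdc7, Pole2 controls, Cdt1 controls and the genes that did not pass were named after their values were seen.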

Additional observations from a re-analysis of the deposited data

How the results depend on the processing

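Across 16 alternatives, 742 of 768 fold changes of single genes kept their direction and their side of the threshold (FDR under 0.05), 20 lost the call, 6 gained it (all Cdc7), and 0 reversed. The calls were lost in Gins2, Prim2, Pola1, Rpa1, Clspn, Gins4 and Pole2. With limma on log2(TPM + 1) and on log2(TPM + 0.1), 9 and 10 genes passed the thresholds of the study, against 36. Of the other replication genes, 16 and 16 passed the test, against 26. Calls fell over all genes tested too. There 231 and 361 genes were higher by the thresholds of the study, against 806, and 1547 and 1623 at FDR under 0.05, against 3418. Requiring a log2 fold change beyond 1 within the test itself (glmTreat) brought the count of 36 to 0, without a count over all genes beside it. Leaving out each library in turn gave 13 to 40 genes past the thresholds of the study and 42 to 46 at FDR under 0.05. Over all genes tested these fits gave 177 to 890 and 1739 to 4456 higher genes. The median log2 fold change of the replication genes was 1.07 to 1.33. There were 10 to 19 transcripts with shares that did not overlap, against 9. With a minimum share of 5% the number of such transcripts was 16. For these transcript counts the share over all genes in the same setting is not given here. The cause of these changes was not tested, beyond fewer libraries or another list of transcripts by construction.

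Nothing in the labels ties libraries of the same replicate number to each other. Their deviations correlated by 0.151, -0.062 and 0.053, which cannot tell whether libraries of the same number were prepared together. 2 of 3 NF-YAcKO libraries correlated best with their own number. With the replicate block 46 genes passed the test and 34 the thresholds of the study, and the median was 1.20. Over all genes tested 2743 were then higher at FDR under 0.05 and 625 by the thresholds of the study, against 3418 and 806 without the block. Depth was not varied.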
